A study of Mus musculus with 6 samples.

Results

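Cholesterol synthesis and sterol handling was examined through 32 genes chosen by name. All 32 were among the 17025 genes of the deposited table. They fall into 7 enzymes of the mevalonate steps, 11 enzymes from squalene to cholesterol, 5 genes of SREBP control, 4 genes of the liver X receptors and sterol efflux, and 5 genes of sterol transport, storage and sulphation. Levels are in FPKM, fragments scaled by gene length and library total. Averaging 1 FPKM or more across the 6 libraries, 31 of them were tested for a difference between the groups, among 11603 genes tested. Nr1h3 lay below that level.

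Cells make cholesterol from acetyl-CoA through mevalonate, isoprenoid units, squalene and lanosterol. The transcription factor SREBP-2 switches on most enzymes of this route when sterol in the endoplasmic reticulum is low. SCAP escorts SREBP to the Golgi for cleavage, and the INSIG proteins hold SCAP back when sterol is plentiful. The liver X receptors sense oxysterols and switch on efflux pumps. In epidermis, cholesterol is part of the barrier lipids together with ceramides and fatty acids, and cholesterol sulphate takes part in cornification and shedding.

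RNA was sequenced from epidermal progenitors of newborn mice (P0), sorted for surface integrin α6, with no treatment named. There were 3 libraries labelled cKO, with the genotype K14Cre,Ash2lF/F, and 3 labelled control, with the genotype K14Cre,Ash2lF/+. The controls thus carried the Cre driver and 1 floxed Ash2l allele as well. The keratin 14 promoter drives Cre in basal keratinocytes, so cells in the sort that do not descend from them would keep Ash2l. ASH2L belongs to the complexes that methylate lysine 4 of histone H3, and the series addresses its part in epidermal differentiation and hair follicle formation. The labels do not tie the libraries to different animals, and the spread behind each p-value may thus be technical.

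Library totals ran from 31578875 to 36027550 fragments. Ash2l itself went against the labels, with 30.9, 29.5 and 22.9 FPKM in the libraries labelled cKO 1, 2 and 3, against 12.4, 18.1 and 15.9 FPKM in those labelled control 1, 2 and 3. Its log2 difference was 0.81 (SE 0.19, limma adjusted p = 0.0240; from 0.00600 to 0.0829 over 14 alternatives). Without the library labelled control 1 or 3 or cKO 1 or 2 it was not called (0.0560, 0.0665, 0.0829 and 0.0810). The level of a whole gene does not show whether its floxed part was recombined, and this conflict with the labels was not resolved. All groups are therefore named by their labels, and every direction below rests on them. The basal markers were present, with the sum of 8 at 8075 to 10474 FPKM in the libraries labelled cKO and 5021 to 8702 FPKM in those labelled control. Keratins made up most of that sum, and of the 8 markers 1 was called higher (Krt15) and 2 lower (Itgb1 and Itgb4). Itga6, the integrin of the sort, had 53.6, 53.0 and 19.7 FPKM in the libraries labelled cKO, against 162, 78.8 and 72.0 FPKM in those labelled control (-1.32, adjusted p = 0.0710). The sum of 8 spinous markers was 34695 to 68057 FPKM in the libraries labelled cKO and 4595 to 6449 FPKM in those labelled control, with 5 of the 8 called higher. Krt1 and Krt10 made up most of that sum. Dsc1, Calml3 and Sbsn were not called (0.01, 0.43 and -0.43). All 8 melanocyte markers were called lower, with sums of 169 to 361 FPKM in the libraries labelled cKO and 2806 to 3214 FPKM in those labelled control. Fibroblast marker sums were 505 to 666 FPKM in the libraries labelled cKO and 147 to 393 FPKM in those labelled control, with 2 of 8 called higher (Postn and Fbln1). Without Postn the sums overlapped, at 204 to 481 FPKM in the libraries labelled cKO and 122 to 368 FPKM in those labelled control. The libraries labelled cKO 3 and control 1 stood apart from the others of their groups. The closest pairs were cKO 1 with cKO 2 and control 2 with control 3 (chi-square per gene 14.2 and 48.7, the lowest of 15 pairs), and results are also given on these 4 libraries. Because they were picked for being close within their groups, the spread is smaller there by construction, and more calls and smaller p-values in that fit are no added support. The lowest adjusted p of the ranges given for Ash2l, Mvk, Hsd17b7, Abcg1 and Sult2b1 comes from it. In such bulk libraries fewer cells of a type and less RNA per cell cannot be told apart.

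Of the 31 genes tested, Mvk and Sult2b1 rose and Abcg1 and Npc1 fell in the cKO-labelled libraries. Calls have a Benjamini-Hochberg adjusted p under 0.05 in limma. The 2 higher calls are 6.45% of the 31, against 5.87% of all genes tested, and the 2 lower calls are 6.45%, against 13.6%. The share of higher calls was thus near that of all genes. The median log2 difference of the 31 was 0.22, while that of all genes tested lay at -0.17. Scaling by the median of ratios moved the median of all genes to 0.01, and raised the share of higher among all calls to 48.6% (30.2% as deposited). Under that scaling 4 genes of the list were called higher and 1 lower, against 8.6% and 9.08% of all genes, with Sc5d and Soat1 added and Npc1 lost. With limma-voom on recovered fragments the counts and changes were the same, against 8.01% and 8.91% of all genes. On the 4 libraries labelled cKO 1 and 2 and control 2 and 3 there were 4 higher and 2 lower, with Acat2 and Hsd17b7 added to the same 4 genes. Among all genes that fit called 10.1% higher and 20.7% lower.

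**Figure D1:**
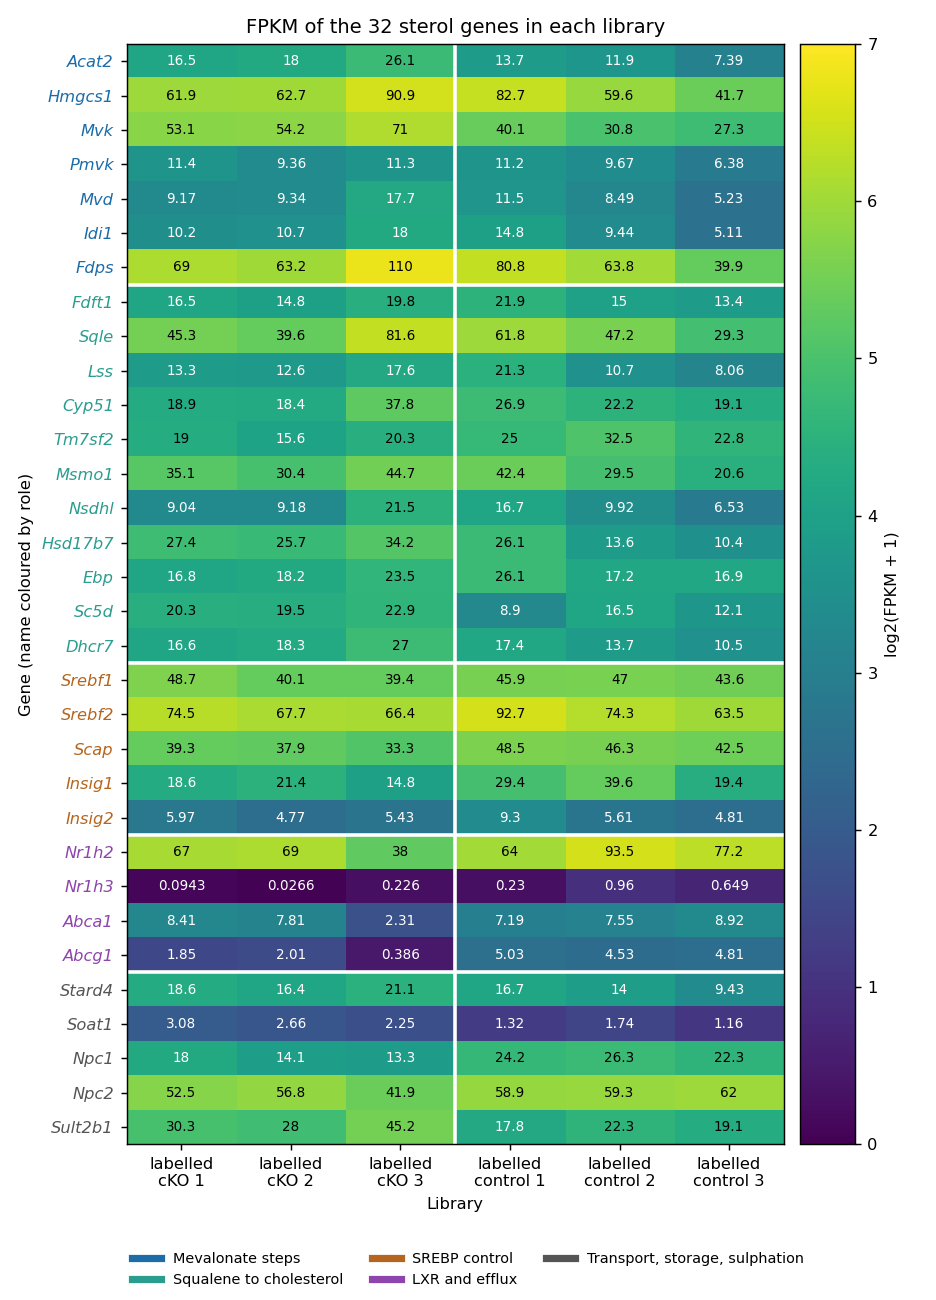
Heat map of the FPKM of the 32 genes (rows, names coloured by role) in each library (columns, as labelled); colour is log2(FPKM + 1) and the printed number is FPKM. Most synthesis enzymes are brightest in cKO 3 and darkest in control 3, and Abcg1 lies between 0.386 and 2.01 FPKM in the libraries labelled cKO and between 4.53 and 5.03 FPKM in those labelled control.

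**Figure D2:**
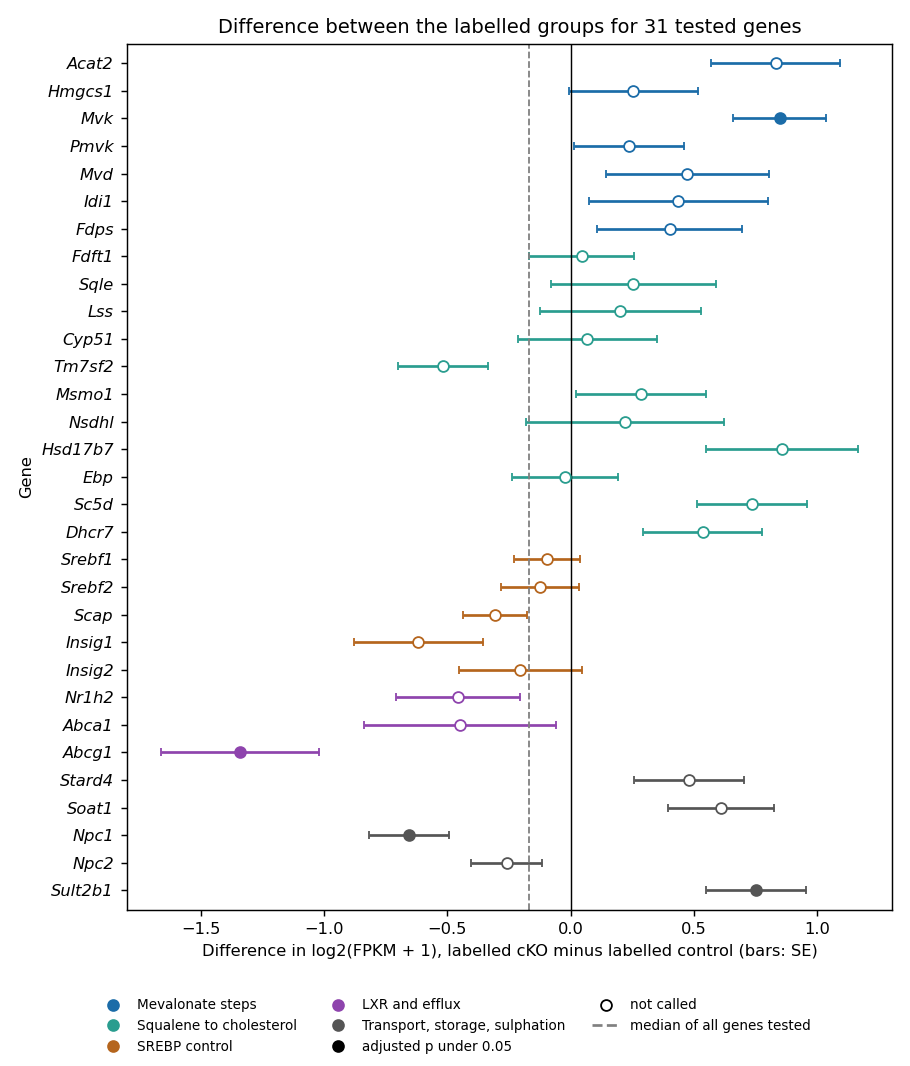
Difference in log2(FPKM + 1), libraries labelled cKO minus libraries labelled control, for the 31 genes tested (x axis; bars are SE from limma, n = 3 per group). Filled points are called, and the dashed line is the median of all genes tested (-0.17). The 7 mevalonate enzymes lie right of 0, and the SREBP control, liver X receptor and efflux genes lie left of it.

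The mevalonate steps had a positive difference in 7 of 7 genes, with a median of 0.44, but 1 passed the test. Mvk, which phosphorylates mevalonate, had 53.1, 54.2 and 71.0 FPKM in the libraries labelled cKO 1, 2 and 3, against 40.1, 30.8 and 27.3 FPKM in those labelled control 1, 2 and 3. No overlap was seen between the groups. Its means were 59.4 ± 10.01 FPKM for cKO and 32.7 ± 6.61 FPKM for control (SD, n = 3 each), 1.82-fold higher (log2 difference 0.85, SE 0.19, limma adjusted p = 0.0192). Over 14 alternatives the adjusted p of Mvk ran from 0.00346 to 0.0739, and it was above 0.05 without control 2 (adjusted p = 0.0739) or control 3 (0.0687).

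Acat2, the cytosolic thiolase that joins 2 acetyl-CoA, had 16.5, 17.96 and 26.1 FPKM in the libraries labelled cKO 1, 2 and 3, against 13.7, 11.9 and 7.39 FPKM in those labelled control. The groups did not overlap, yet the difference of 0.83 (SE 0.26) did not pass the test (adjusted p = 0.0607). Acat2 has a close paralogue, Acat3, whose reads could be split from it in the counting. Acat3 was low, at 0.0675 to 0.861 FPKM in the libraries labelled cKO and 0.553 to 1.13 FPKM in those labelled control.

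The other mevalonate enzymes overlapped between the groups. Hmgcs1, which makes HMG-CoA, had 61.9, 62.7 and 90.9 FPKM in the libraries labelled cKO, against 82.7, 59.6 and 41.7 FPKM in those labelled control (log2 difference 0.25, SE 0.26). Fdps, which makes farnesyl diphosphate, had 69.0, 63.2 and 110.2 FPKM in the libraries labelled cKO, against 80.8, 63.8 and 39.9 FPKM in those labelled control (0.40, SE 0.29). In both genes control 1 lay above cKO 1 and 2, and control 3 was the lowest of the 6 libraries. Pmvk, the next kinase after Mvk, was at 0.24 (SE 0.22), Mvd, the decarboxylase, at 0.47 (SE 0.33) and Idi1, the isomerase of isopentenyl diphosphate, at 0.44 (SE 0.36). Their adjusted p ran from 0.343 to 0.488.

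From squalene to cholesterol, no gene of 11 passed the test with limma. At an unadjusted p under 0.05 there were 2 higher (Sc5d, Hsd17b7) and 1 lower (Tm7sf2), and limma-voom on the recovered fragments called 1 (Sc5d). Of all genes tested 19.5% passed even with adjustment. Their share at an unadjusted p is not given here, so counts at that level, here and below, set no list apart. Differences were positive in 9 of 11, with a median of 0.22. Sc5d, the lathosterol desaturase, had 20.3, 19.5 and 22.9 FPKM in the libraries labelled cKO 1, 2 and 3, against 8.90, 16.5 and 12.1 FPKM in those labelled control 1, 2 and 3. The labelled groups were apart (0.73, SE 0.22, adjusted p = 0.0528), and over 14 alternatives the adjusted p ran from 0.0292 to 0.130. Without the library labelled control 2 it was called (adjusted p = 0.0388).

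Hsd17b7, the 3-ketosterol reductase, had 27.4, 25.7 and 34.2 FPKM in the libraries labelled cKO, against 26.1, 13.6 and 10.4 FPKM in those labelled control. Control 1 lay within the cKO range, so the groups overlapped (0.86, SE 0.31, adjusted p = 0.0890). Without control 1 it was called at 1.21 (adjusted p = 0.0167; from 0.00577 to 0.233 over 14 alternatives). Tm7sf2, a sterol C14 reductase, went the other way, at 19.0, 15.6 and 20.3 FPKM in the libraries labelled cKO, against 25.0, 32.5 and 22.8 FPKM in those labelled control (-0.52, SE 0.18, adjusted p = 0.0836). Its gene span overlaps that of Vps51 in the GRCm38 annotation, and Vps51 was at -0.30 (adjusted p = 0.186).

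The other 8 enzymes overlapped between the groups, with adjusted p from 0.159 to 0.950. Sqle, the squalene epoxidase, had 45.3, 39.6 and 81.6 FPKM in the libraries labelled cKO, against 61.8, 47.2 and 29.3 FPKM in those labelled control (0.25, SE 0.33). Both groups span a wide range, with cKO 1 and 2 inside that of the controls. Cyp51, the lanosterol demethylase, was at 0.07 (SE 0.28), Fdft1, the squalene synthase, at 0.04 (SE 0.21) and Ebp, the sterol isomerase, at -0.02 (SE 0.21). Lss, the lanosterol synthase, was at 0.20 (SE 0.33), Msmo1, the C4 methyl oxidase, at 0.29 (SE 0.26), and Nsdhl, its partner in removing C4 methyl groups, at 0.22 (SE 0.40). Dhcr7, which makes cholesterol from its 7-dehydro precursor, was at 0.54 (SE 0.24). Fdft1 shares part of its gene span with Ctsb in the GRCm38 annotation.

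The 18 synthesis enzymes varied together between libraries of the same label. Their summed level was 469, 450 and 696 FPKM in the libraries labelled cKO 1, 2 and 3, against 549, 422 and 303 FPKM in those labelled control 1, 2 and 3. The library labelled cKO 3 was the highest of its group in 17 of 18 enzymes, where 28.8% of all genes tested have that order. Control 1 was the highest and control 3 the lowest of the control group in 16 of 18, against 17.7% of all genes tested. The median enzyme stood 1.92-fold higher in control 1 than in control 3 (all genes 0.982), and 1.45-fold higher in cKO 3 than in cKO 2 (all genes 0.857). In contrast cKO 1 and cKO 2 were within 1.25-fold of each other in 18 of 18 (82.7% of all genes tested). These libraries were singled out after their values were seen, and genes within a library share its depth and its other RNA.

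Measured from 0, the positive direction of the synthesis enzymes was least marked without the library labelled control 3. Differences were positive in 16 of 18 (median 0.27) as deposited and in 17 of 18 (median 0.47) under scaling by the median of ratios. Without control 3 they were positive in 11 of 18, with a median of 0.03, and without cKO 3 in 12 of 18, with a median of 0.15. The median of all genes tested was itself below 0, at -0.17 as deposited and without control 3, and -0.12 without cKO 3. Above that median lay 17 of 18 enzymes as deposited, 17 of 18 without control 3 and 14 of 18 without cKO 3. Without control 1 the median of the enzymes was 0.54, with 17 of 18 positive. On the 4 libraries labelled cKO 1 and 2 and control 2 and 3 it was 0.39, with 16 of 18 positive and 3 called higher (Acat2, Mvk and Hsd17b7). The sum of spinous markers, most of it Krt1 and Krt10, moved with part of this pattern. That sum in cKO 3 was 68057 FPKM, against 34695 and 35462 FPKM in cKO 1 and 2, while controls 1, 2 and 3 held 4595, 6449 and 5900 FPKM. The part of spinous markers in the enzyme levels was not tested.

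**Figure D3:**
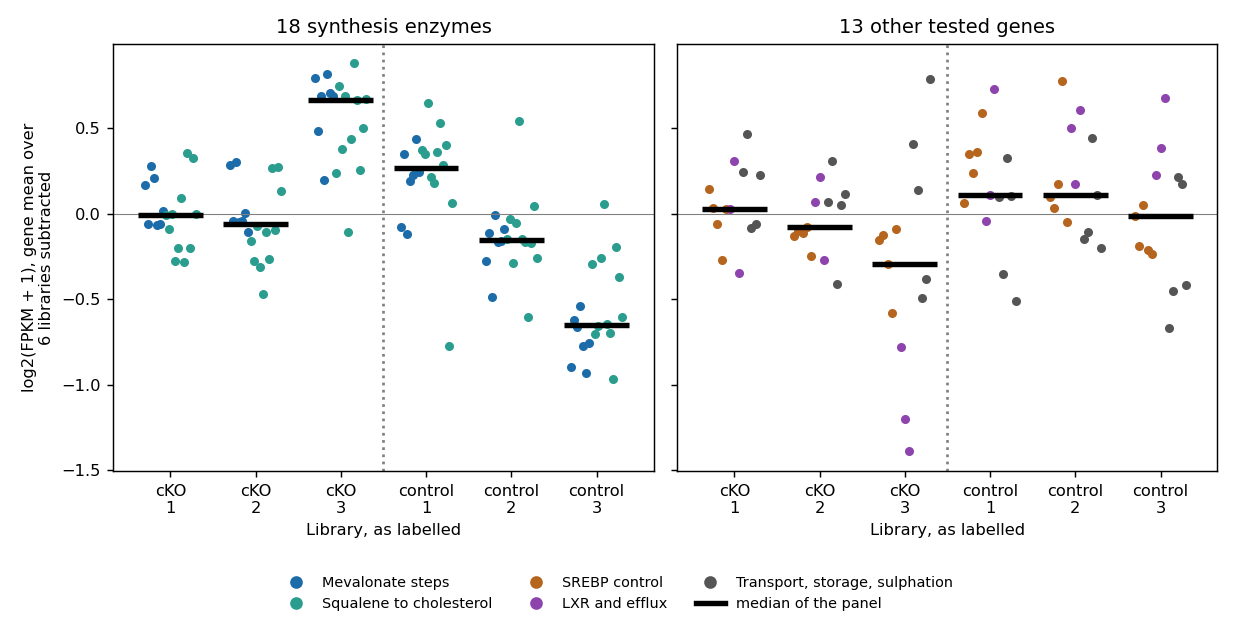
Level of each gene in each library as log2(FPKM + 1) with the gene's mean over the 6 libraries subtracted (y axis), for the 18 synthesis enzymes (left) and the other 13 genes tested (right); bars are the median of the panel. On the left cKO 3 is the highest of its group in 17 of 18 enzymes and control 3 the lowest of its group in 17 of 18; on the right cKO 3 is the highest in 2 of 13.

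Since most synthesis enzymes moved together between libraries, their promoters are shown for the letters that SREBP and its partner NF-Y are known to bind. RefSeq windows of 250 bases before to 50 after the start, of the build GRCm38.p6, were held for 26 of the 32 genes; the expression values come from another build, GRCm39. Both strands were searched for TCACNCCAC, a core of the sterol regulatory element, and for CCAAT, the NF-Y box. The NF-Y letters occurred in 14 of 15 synthesis enzymes with a window (93.3%), in 6 of 11 other genes of the list (54.5%), and in 41.1% of the 27025 genes of the promoter table. The sterol regulatory core occurred in Hmgcs1 alone of the 26, and in 1.44% of all genes of the table. A repeat of AGGTCA with 4 bases between, an element of the liver X receptors, occurred in none of the 26 and in 4 genes of the table. Being that rare, its absence from 26 windows says nothing on these genes, and Abcg1 had no window. Such matches describe the letters of these windows and show no binding. Shown are the genes with the smallest adjusted p of each role among those with a match (Mvk, Sc5d, Insig1, Soat1), and Hmgcs1, added for its sterol regulatory core after the search. Capitals mark matches on either strand, so that ATTGG is a CCAAT on the other strand. The windows lie at chr5:114444019-114444318 (+), chr13:119690101-119690400 (+), chr9:42264251-42264550 (-), chr5:28071162-28071461 (+) and chr1:156474279-156474578 (-), each 5′ to 3′ on the strand of its gene.
Mvk: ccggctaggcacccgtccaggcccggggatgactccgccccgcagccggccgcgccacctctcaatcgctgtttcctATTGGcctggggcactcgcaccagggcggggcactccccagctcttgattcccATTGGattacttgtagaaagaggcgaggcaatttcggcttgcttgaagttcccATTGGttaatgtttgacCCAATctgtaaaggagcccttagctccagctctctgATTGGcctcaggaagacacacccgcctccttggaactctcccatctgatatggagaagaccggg
Hmgcs1: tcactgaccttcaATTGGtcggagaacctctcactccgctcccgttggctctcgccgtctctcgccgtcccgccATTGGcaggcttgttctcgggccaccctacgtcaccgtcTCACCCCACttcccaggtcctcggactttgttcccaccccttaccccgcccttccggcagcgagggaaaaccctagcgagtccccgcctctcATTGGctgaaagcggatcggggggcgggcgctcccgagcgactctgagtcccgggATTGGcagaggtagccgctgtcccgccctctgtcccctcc
Sc5d: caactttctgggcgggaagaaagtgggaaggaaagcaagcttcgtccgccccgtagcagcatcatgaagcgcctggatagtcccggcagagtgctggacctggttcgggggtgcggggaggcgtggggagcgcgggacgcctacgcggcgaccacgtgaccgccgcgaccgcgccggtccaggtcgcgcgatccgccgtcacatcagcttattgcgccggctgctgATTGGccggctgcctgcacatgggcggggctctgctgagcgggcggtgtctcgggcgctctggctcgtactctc
Insig1: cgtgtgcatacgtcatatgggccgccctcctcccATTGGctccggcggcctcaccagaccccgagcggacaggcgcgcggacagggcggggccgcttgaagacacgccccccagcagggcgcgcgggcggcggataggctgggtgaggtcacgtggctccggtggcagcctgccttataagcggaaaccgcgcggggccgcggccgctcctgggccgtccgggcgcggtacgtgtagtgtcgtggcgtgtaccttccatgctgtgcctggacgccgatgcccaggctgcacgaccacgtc
Soat1: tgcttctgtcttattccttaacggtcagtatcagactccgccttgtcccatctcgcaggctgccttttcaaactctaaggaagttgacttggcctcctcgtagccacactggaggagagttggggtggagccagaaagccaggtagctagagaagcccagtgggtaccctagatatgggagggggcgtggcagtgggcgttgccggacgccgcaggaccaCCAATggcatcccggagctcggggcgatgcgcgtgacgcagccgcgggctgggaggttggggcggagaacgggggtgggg

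Mvk, the enzyme gene that passed the test, held 5 CCAAT boxes in its window, the first starting 173 bases before the start and the last 14 bases before it. Hmgcs1 held 4, and its sterol regulatory core began 137 bases before the start. Sc5d, Insig1 and Soat1 held 1 each. Acat2 was the only synthesis enzyme with a window and no match, and it moved with the others, being highest in cKO 3 and lowest in control 3.

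None of the 5 genes of SREBP control passed the test with limma or limma-voom, although 2 (Scap and Insig1) had an unadjusted p under 0.05 in limma, both lower. Among all genes tested 13.6% were lower even with adjustment. Srebf2, which encodes SREBP-2, had 74.5, 67.7 and 66.4 FPKM in the libraries labelled cKO 1, 2 and 3, against 92.7, 74.3 and 63.5 FPKM in those labelled control (-0.13, SE 0.16, adjusted p = 0.611). Among the controls it was highest in control 1 and lowest in control 3, as the enzymes were, but in the cKO group cKO 3 was not the highest. Srebf1, which encodes the fatty acid regulator SREBP-1, had 48.7, 40.1 and 39.4 FPKM in the libraries labelled cKO, against 45.9, 47.0 and 43.6 FPKM in those labelled control (-0.10, SE 0.13). Part of its gene span overlaps Rai1 in the GRCm38 annotation.

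Scap had 39.3, 37.9 and 33.3 FPKM in the libraries labelled cKO, against 48.5, 46.3 and 42.5 FPKM in those labelled control. All cKO libraries lay below all control libraries, and the difference of -0.31 (SE 0.13) did not pass the test (adjusted p = 0.139). Insig1, itself a known SREBP target, had 18.6, 21.4 and 14.8 FPKM in the libraries labelled cKO, against 29.4, 39.6 and 19.4 FPKM in those labelled control (-0.62, SE 0.26, adjusted p = 0.140). Its lowest library was cKO 3, in which 13 of the 18 enzymes had their highest value of all 6. Insig2, the second INSIG gene, was at -0.20 (SE 0.25, adjusted p = 0.598). Under scaling by the median of ratios 2 of the 5 differences were positive, so no common direction is given for these genes.

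Abcg1, an efflux pump for cholesterol and a known liver X receptor target, was lower in the libraries labelled cKO. It had 1.85, 2.01 and 0.386 FPKM in the libraries labelled cKO 1, 2 and 3, against 5.03, 4.53 and 4.81 FPKM in those labelled control 1, 2 and 3. No overlap was seen between the groups, and cKO 3 was the lowest. The means were 1.42 ± 0.895 FPKM for cKO and 4.79 ± 0.251 FPKM for control (SD, n = 3 each), a log2 difference of -1.34 (SE 0.32, limma adjusted p = 0.0254). The adjusted p ran from 0.0117 to 0.0759 over 13 alternatives, and it was above 0.05 without control 1, 2 or 3 (0.0681, 0.0759 and 0.0746) and with no filter on low values (0.0555). On the 4 libraries labelled cKO 1 and 2 and control 2 and 3 it was at -0.95.

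Abca1, the pump that loads cholesterol onto apolipoproteins, had 8.41, 7.81 and 2.31 FPKM in the libraries labelled cKO 1, 2 and 3, against 7.19, 7.55 and 8.92 FPKM in those labelled control. The library labelled cKO 3 lay far below the other 5, and the difference of -0.45 (SE 0.39) did not pass the test. Without cKO 3 it was at 0.04. Nr1h2, which encodes liver X receptor beta, had 67.0, 69.0 and 37.96 FPKM in the libraries labelled cKO, against 64.0, 93.5 and 77.2 FPKM in those labelled control (-0.46, SE 0.25, adjusted p = 0.234). Nr1h3, which encodes liver X receptor alpha, was too low to be tested. It had 7, 2 and 18 fragments in the libraries labelled cKO 1, 2 and 3, against 16, 70 and 47 in those labelled control. In FPKM these are 0.0943, 0.0266 and 0.226 for cKO and 0.230, 0.960 and 0.649 for control. The gene span of Nr1h3 overlaps that of Acp2 in the GRCm38 annotation. Acp2 had 8.95, 9.60 and 7.24 FPKM in the libraries labelled cKO, against 8.02, 9.86 and 10.3 FPKM in those labelled control. How reads were split between Nr1h3 and Acp2 is not known. Abcg1, Abca1 and Nr1h2 were each lowest in cKO 3. Macrophages are known to express Abca1, Abcg1 and Nr1h3. The sum of 8 macrophage markers was 6.56 to 12.9 FPKM in the libraries labelled cKO and 11.1 to 14.6 FPKM in those labelled control. Neither of the 2 tested was called by limma or limma-voom, and Cd68 was lower at an unadjusted p under 0.05 in limma (-0.61, adjusted p = 0.118). Cd68 made up most of the sum, and Adgre1 and Mrc1 were at most 0.1001 and 0.0895 FPKM. Melanocyte markers were also lower in the libraries labelled cKO, as given above. The part of either cell type in these levels was not tested.

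Sult2b1, the sulphotransferase that makes cholesterol sulphate in epidermis, was higher in the libraries labelled cKO. It had 30.3, 28.0 and 45.2 FPKM in the libraries labelled cKO 1, 2 and 3, against 17.8, 22.3 and 19.1 FPKM in those labelled control 1, 2 and 3. The groups did not overlap, and cKO 3 was the highest. The means were 34.5 ± 9.32 FPKM for cKO and 19.7 ± 2.30 FPKM for control (SD, n = 3 each), 1.75-fold higher (log2 difference 0.75, SE 0.20, limma adjusted p = 0.0384). Over 14 alternatives the adjusted p ran from 0.0309 to 0.109, and it was above 0.05 without control 1, 2 or 3 or cKO 1 (0.0976, 0.0767, 0.109 and 0.0681), and with no filter on low values (0.0650). On the 4 libraries labelled cKO 1 and 2 and control 2 and 3 it was at 0.48. The sum of spinous markers, most of it Krt1 and Krt10, was higher in the same libraries and highest in cKO 3, as given above. The part of these markers in the difference of Sult2b1 was not tested.

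Npc1, the lysosomal membrane protein that passes on cholesterol from endocytosed lipoprotein, was lower in the libraries labelled cKO. It had 17.97, 14.1 and 13.3 FPKM in the libraries labelled cKO 1, 2 and 3, against 24.2, 26.3 and 22.3 FPKM in those labelled control 1, 2 and 3. The labelled groups were apart. The means were 15.1 ± 2.49 FPKM for cKO and 24.3 ± 1.98 FPKM for control (SD, n = 3 each), a log2 difference of -0.66 (SE 0.16, limma adjusted p = 0.0299). The adjusted p ran from 0.0284 to 0.104 over 14 alternatives. With median-of-ratios scaling the call was lost (-0.46, adjusted p = 0.0749), as it was without control 1, 2 or 3 or cKO 2 (0.0636, 0.104, 0.0662 and 0.0991). Its gene span overlaps Rmc1 in the GRCm38 annotation, and Rmc1 was at 0.04 (adjusted p = 0.864).

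Npc2, the soluble lysosomal partner of NPC1, had 52.5, 56.8 and 41.9 FPKM in the libraries labelled cKO, against 58.9, 59.3 and 62.0 FPKM in those labelled control. All cKO libraries lay below all control libraries, with a difference of -0.26 (SE 0.14, adjusted p = 0.241). With median-of-ratios scaling the difference of Npc2 was -0.06 (adjusted p = 0.759). Soat1, which esterifies cholesterol for storage, had 3.08, 2.66 and 2.25 FPKM in the libraries labelled cKO, against 1.32, 1.74 and 1.16 FPKM in those labelled control. No overlap was seen between the groups either, and the difference of 0.61 (SE 0.22) did not pass the test (adjusted p = 0.0860), though it did with median-of-ratios scaling (0.74, adjusted p = 0.0444; from 0.0374 to 0.259 over 13 alternatives). Stard4, a soluble sterol carrier, overlapped between the groups (0.48, SE 0.22, adjusted p = 0.168) and was highest in cKO 3 and lowest in control 3.

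In 5 of the 31 genes tested every library labelled cKO lay above every library labelled control (Mvk, Acat2, Sc5d, Soat1, Sult2b1), and in 5 every one lay below (Tm7sf2, Scap, Abcg1, Npc1, Npc2). These are 16.1% each, against 12% and 30.9% of all genes tested. The exact permutation test, two-sided, gives p = 0.1 for each such gene, the smallest that 3 against 3 can give.

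**Figure D4:**
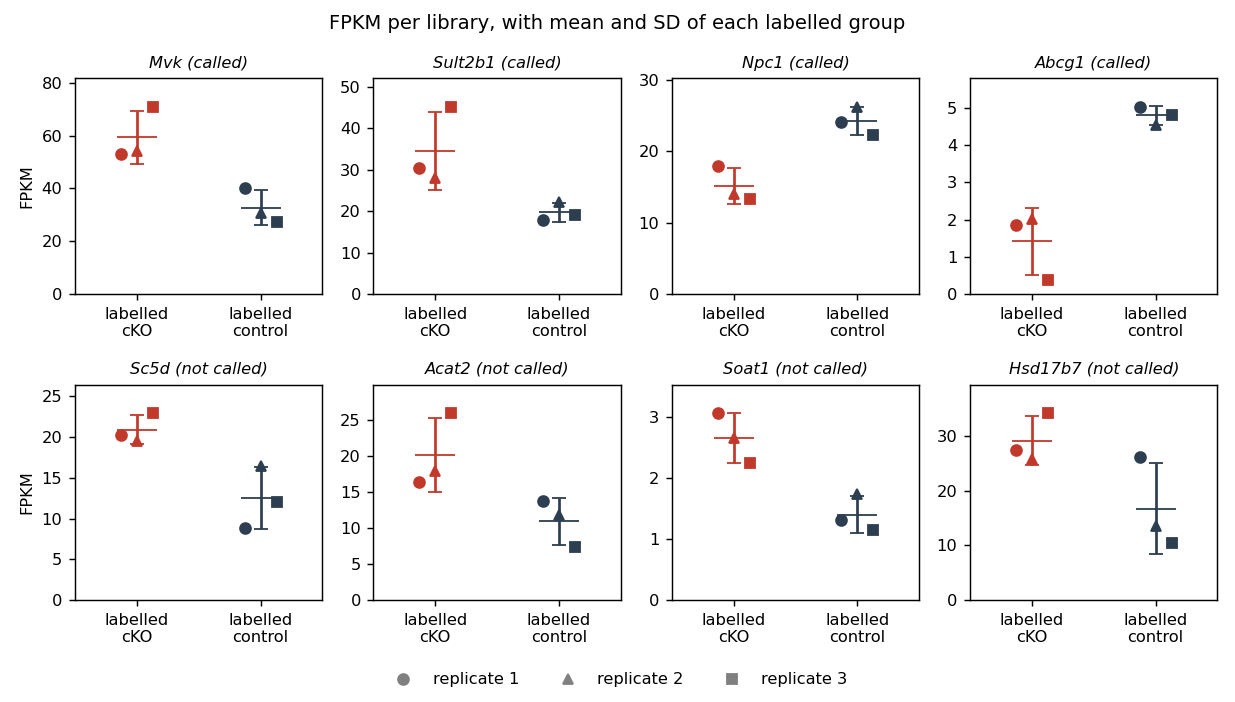
FPKM (y axis, from 0) in each library of the libraries labelled cKO (left) and labelled control (right) for the 4 called genes (top) and the 4 uncalled genes with the largest positive differences (bottom). Points are libraries, with the replicate by symbol, and bars are mean and SD (n = 3). The groups are apart in 7 of the 8 genes, and Hsd17b7 overlaps because control 1 lies at 26.1 FPKM.

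Of 40 further genes of sterol metabolism, 34 were tested, of which 3 rose and 7 fell in libraries with the cKO label, with a median difference of -0.12. The higher 3 are 8.82% of the 34 and the lower 7 are 20.6%, against 5.87% and 13.6% of all genes tested. Stard5, a lipid carrier of the START family, had 36.6, 33.7 and 62.9 FPKM in the libraries labelled cKO, against 9.11, 9.13 and 12.3 FPKM in those labelled control (1.98, SE 0.25, limma adjusted p = 0.00297). Erlin1, a cholesterol-binding protein of the endoplasmic reticulum, had 34.1, 37.0 and 41.2 FPKM in the libraries labelled cKO, against 17.3, 17.1 and 12.9 FPKM in those labelled control (1.20, SE 0.16, adjusted p = 0.00356). Both stood apart between the groups in all 6 libraries. The third, Tmem97, a partner of NPC1, was at 0.92 (SE 0.21, adjusted p = 0.0204). It was named after its values were seen, as were 5 of the genes that fell.

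Nceh1, a hydrolase of cholesteryl esters and thus the counterpart of Soat1, had the largest fall of the 34. It had 1.31, 1.11 and 0.505 FPKM in the libraries labelled cKO, against 18.1, 8.19 and 7.79 FPKM in those labelled control (-2.57, SE 0.34, adjusted p = 0.00330). Dhdds, which builds dolichol from a product of the mevalonate steps, had 13.4, 14.2 and 14.2 FPKM in the libraries labelled cKO, against 23.3, 25.6 and 23.0 FPKM in those labelled control (-0.74, SE 0.14, adjusted p = 0.00988). The other 5 that fell were Mylip (-1.48, adjusted p = 0.0206), Scarb1 (-1.27, 0.0100), Sts (-1.19, 0.0372), Lrp8 (-1.10, 0.0398) and Hsd3b7 (-0.69, 0.0444). Scarb1 encodes a lipoprotein receptor, Mylip a ubiquitin ligase for such receptors, and Sts the sulphatase that removes the group SULT2B1 adds. Macrophages also express Nceh1, and their marker sums are given above. The sum of 8 melanocyte markers was lower in the libraries labelled cKO too, and lowest in cKO 3 (169 FPKM). The part of either cell type in these levels was not tested.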

How the data were processed

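The data are RNA-seq libraries, 6 in all. The authors deposited 1 table of FPKM values per gene, per the file headers. Per the submitters' processing notes fastp, HISAT2 and HTSeq were used with the build GRCm39. No source used here gives versions, annotation release, strand setting or gene filter, so reads of overlapping genes and close paralogues are uncertain. Groups and replicate numbers came from the labels, and columns were matched to samples by the names the labels give.

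The low FPKM values were whole multiples of 1 fragment. Whole fragments came back (to 1e-06) in 17025 genes once totals and lengths were solved for, and these give the depth. Counting error covers fragments only, and PCR copies are not independent.

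A filter kept genes averaging 1 FPKM or more. The test was limma (version 3.58.1, under R 4.3.3) on log2(FPKM + 1), comparing the labels with a variance trend on mean level and no other term. This scale understates changes of low genes. Adjusted p-values are Benjamini-Hochberg values over all 11603 genes tested, called under 0.05. The fit was tested on simulated data, whose spread was set and may differ from that of these libraries. It called 10.2% of genes changed 1.5-fold, 51.0% of those changed 2-fold and 100% of those changed 4-fold. Of unchanged genes it called 0.0703%. A gene that did not pass the test may thus still differ between the groups. The genes, their roles, the further lists and the markers were chosen with earlier results of these data known. Every gene of the list is named, with the 4 of each further list with the smallest adjusted p. Alternatives were a pseudocount of 0.1, other filters, scaling by the median of ratios, robust variances, limma-voom on the recovered fragments, a replicate block, each library left out, and 4 libraries. Figures were drawn with matplotlib 3.10.9.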

Additional observations from a re-analysis of the deposited data

How the results depend on the processing

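Of 432 values of the listed genes over 14 alternatives, none of the called ones changed sign, 20 fell short of the threshold and 8 passed it newly. Called or not, 21 of the 31 genes tested kept their sign under every alternative. The 2 higher calls of the list became 1 with no filter, 4 under scaling by the median of ratios, 4 with limma-voom and 4 on the 4 libraries, and 0 to 2 with each library left out. The 2 lower calls became 1 with no filter, with a filter at 5 FPKM, under scaling by the median of ratios or with limma-voom, and 0 to 2 with each library left out. The 0 to 2 include 0 in either direction without the library labelled control 3, where 4 were higher and 4 lower at an unadjusted p under 0.05. The median of the list ran from -0.045 to 0.49 with each library left out. All genes gave 681 higher and 1576 lower calls. These became 1174 and 2402 on the 4 libraries and 929 and 1034 with limma-voom. With each library left out they ran from 390 to 715 and from 712 to 1448. The 40 further sterol genes had 6 higher on the 4 libraries, 3 lower with no filter, and 3 to 5 lower and 2 to 4 higher with each library left out. For the lipogenic genes, the 3 higher became 1 with no filter, 5 under scaling by the median of ratios, 5 with limma-voom and 6 on the 4 libraries, and 1 to 3 with each library left out. Their 2 lower became 1 with a pseudocount of 0.1, with a filter at 5 FPKM, under scaling by the median of ratios or with limma-voom, 0 with no filter, and 0 to 1 with each library left out. The cause of these shifts was not tested.

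No source ties a replicate number to an animal or day, so it is not known whether the numbers pair the libraries. Deviations from the group means correlated at -0.31, 0.08 and -0.26 for numbers 1, 2 and 3. For unlike numbers they ran from -0.20 (cKO 2 with control 1) to 0.29 (cKO 3 with control 1). Deviations within a group of 3 sum to 0, so these correlations depend on each other and cannot decide the pairing. With the replicate block all genes gave 432 higher and 893 lower calls, the list 0 higher and 1 lower (5 and 3 at an unadjusted p under 0.05; lost were Mvk, adjusted p = 0.0588, Npc1, 0.0744, and Sult2b1, 0.0789), and the lipogenic genes 3 and 1.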

Other observations

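Genes of fatty acid synthesis and desaturation that SREBP-1 is known to regulate went both ways. Of 14, 13 were tested, of which 3 rose and 2 fell in libraries with the cKO label, with a median difference of 0.37. These are 23.1% and 15.4% of the 13, against 5.87% and 13.6% of all genes tested, so the lower share was near that of all genes. Me1, the malic enzyme that supplies NADPH, had 18.3, 14.8 and 15.7 FPKM in the libraries labelled cKO, against 2.51, 4.58 and 5.16 FPKM in those labelled control (1.80, SE 0.24, limma adjusted p = 0.00349). Elovl6, a fatty acid elongase, rose by 1.11 (SE 0.30, adjusted p = 0.0371) and Pnpla3, a lipase of lipid droplets, by 1.26 (SE 0.34, adjusted p = 0.0389). Lpin1, a phosphatidate phosphatase, had 2.88, 3.21 and 1.44 FPKM in the libraries labelled cKO, against 9.06, 7.16 and 5.19 FPKM in those labelled control (-1.22, SE 0.29, adjusted p = 0.0239). Mid1ip1, named after its values were seen, was at -0.61 (SE 0.18, adjusted p = 0.0479).

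Sebocytes are rich in sterol synthesis. Of 8 sebocyte markers 7 were matched, and Krt79 made up nearly all of their sum, at 1134, 1024 and 1182 FPKM in the libraries labelled cKO, against 186, 228 and 176 FPKM in those labelled control. The other 6 summed to 11.7, 12.3 and 3.17 FPKM in the libraries labelled cKO 1, 2 and 3, against 1.22, 2.52 and 5.46 FPKM in those labelled control. The part of such cells in the enzyme levels was not tested.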
